A study of Mus musculus with 4 samples.

Results

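The genes described here are those of the enzyme that makes deoxyribonucleotides and of the steps that supply thymidylate, Rrm1, Rrm2, Rrm2b, Tyms, Dut and Dtymk, in the mouse mammary carcinoma line 4T1. They were taken by gene symbol, and all 6 were present among the 16695 genes of the table. RNA-seq compared cells labelled knockout (DHODH KO) for Dhodh with wild-type (WT) cells of the same line, and each genotype had 2 libraries. The labels give no treatment, and name neither a clone of KO cells nor separate cultures for the 2 libraries of each genotype. The p-values therefore describe library-to-library spread, which may be technical. DHODH, dihydroorotate dehydrogenase, makes orotate in de novo pyrimidine synthesis, and the study's design sets gene expression in KO cells against that in WT cells.

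Ribonucleotide reductase turns ribonucleoside diphosphates into deoxyribonucleoside diphosphates, the building blocks of DNA. Its large subunit RRM1 holds the catalytic and regulatory sites, and a small subunit supplies the radical that the reaction needs, either RRM2, which is made for S phase and degraded as cells leave it, or RRM2B, which is induced by p53 and serves outside S phase. Thymidylate is made apart from the other deoxynucleotides: dUTPase (Dut) cleaves dUTP to dUMP, thymidylate synthase (Tyms) methylates dUMP to dTMP with a folate as the methyl donor, and thymidylate kinase (Dtymk) phosphorylates dTMP. In proliferating cells most of these genes are transcribed around the entry into S phase.

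The stretches before the transcription starts of Rrm2, Rrm1 and Tyms are shown because these members fell in the KO cells by different amounts, as given below. RefSeq (GRCm38.p6) had an entry for 5 of the 6 members, and each sequence below is the 250 bases before the start, on the strand of the gene. That build is not the one named for the measurements and is used for these sequences only. Capitals mark matches on either strand to CCAAT, the letters bound by NF-Y, or to an E2F-like core (the letters TTCCCGC, with the variants TTCGCGC and, further, TTGCCGC and also TTGGCGC), and no matches overlapped. The Rrm2 stretch is chr12:24708004-24708253 (+ strand), that of Rrm1 is chr7:102441445-102441694 (+ strand), and that of Tyms is chr5:30073626-30073875 (- strand).
Rrm2: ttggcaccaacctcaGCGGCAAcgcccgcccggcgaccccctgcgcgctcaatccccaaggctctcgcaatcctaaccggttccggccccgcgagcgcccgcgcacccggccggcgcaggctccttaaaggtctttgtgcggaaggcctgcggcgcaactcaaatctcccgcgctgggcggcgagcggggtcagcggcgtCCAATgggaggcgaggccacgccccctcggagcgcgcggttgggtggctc
Rrm1: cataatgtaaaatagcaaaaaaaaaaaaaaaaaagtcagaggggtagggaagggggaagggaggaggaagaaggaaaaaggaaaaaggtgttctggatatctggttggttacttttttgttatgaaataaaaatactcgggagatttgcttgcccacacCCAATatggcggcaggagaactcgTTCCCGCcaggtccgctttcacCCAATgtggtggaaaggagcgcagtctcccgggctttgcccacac
Tyms: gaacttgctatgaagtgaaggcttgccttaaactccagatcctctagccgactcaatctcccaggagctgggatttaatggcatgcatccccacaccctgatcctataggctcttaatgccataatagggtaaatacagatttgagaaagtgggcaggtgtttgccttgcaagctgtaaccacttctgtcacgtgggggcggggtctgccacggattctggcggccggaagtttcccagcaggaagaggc
The Rrm2 stretch held 1 CCAAT match, ending 46 bases before the start, and 1 E2F-like match far upstream. The Rrm1 stretch held 2 CCAAT matches on both sides of 1 E2F-like match, and the Tyms stretch held neither. Among 32851 RefSeq stretches of this length, 33.8% held CCAAT and 7.89% an E2F-like core. The letters TTTGAA, the CHR element of cell cycle genes, occurred in 16.0% of the stretches and in none of the 5 of the members. The Dtymk stretch held 1 CCAAT and 1 E2F-like match and the Dut stretch neither.

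The reductase subunits moved in opposite directions. Rrm2 fell most, 1.97-fold higher in WT, Rrm1 fell slightly, and Rrm2b rose. Of the thymidylate genes Tyms fell, while Dut and Dtymk were not called. Values are FPKM, reads scaled to gene length and library size, as mean ± SD with n = 2 libraries per genotype, and each log2 fold change is the KO level minus the WT level of log2(FPKM + 1), ± SE. Adding 1 makes changes of weakly expressed genes look smaller. Adjusted p-values are Benjamini-Hochberg values over 10170 tested genes from limma-trend, and a gene was called at an adjusted p under 0.05. All 6 members passed the filter of a mean of at least 1 FPKM. In all, 4 of the 6 were called, where 64.7% of all tested genes were, so the share of members called is close to that of the whole table and the sizes and directions carry the description. In RNA from whole cultures, fewer cells in S phase and less transcript per cell cannot be told apart.

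Rrm2, the S phase small subunit (Entrez Gene 20135), measured 81.41 and 88.78 FPKM in DHODH KO replicates 1 and 2, against 165.73 and 170.12 FPKM in WT replicates 1 and 2. Both KO libraries were low, and the gap of 77.0 FPKM between the groups exceeded the 7.37 FPKM between the KO libraries. The mean was 85.1 ± 5.21 FPKM in KO and 167.9 ± 3.10 FPKM in WT, so that WT was 1.97-fold higher (log2 fold change -0.97 ± 0.047, 95% interval -1.085 to -0.862, adjusted p = 6e-06 by limma). Of the 10170 tested genes, 131 (1.29%) had a lower log2 fold change. The FPKM steps correspond to at least 6685 and 7296 reads of Rrm2 in the KO libraries and at least 12767 and 12846 in the WT libraries.

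Rrm1, the large subunit (Entrez Gene 20133), measured 82.14 and 83.78 FPKM in KO and 95.26 and 94.68 FPKM in WT. Its groups did not overlap, and the fall was small, 12.6% of the WT mean (log2 fold change -0.19 ± 0.035, interval -0.275 to -0.111, adjusted p = 0.00217 by limma). A lower log2 fold change was seen in 26.9% of the tested genes, so that a fall of this size was common in the table. Rrm1 had at least 12367 reads in every library.

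Rrm2b, the p53-inducible small subunit (Entrez Gene 382985), measured 12.04 and 12.60 FPKM in KO and 8.0 and 7.20 FPKM in WT. Both KO libraries were above both WT libraries, by a gap of 4.04 FPKM where the WT libraries differed by 0.80 FPKM. The mean was 12.3 ± 0.399 FPKM in KO and 7.60 ± 0.566 FPKM in WT, a 1.62-fold rise (log2 fold change 0.63 ± 0.067, interval 0.474 to 0.792, adjusted p = 0.00018 by limma). Of the tested genes, 8.17% had a higher log2 fold change.

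**Figure D1:**
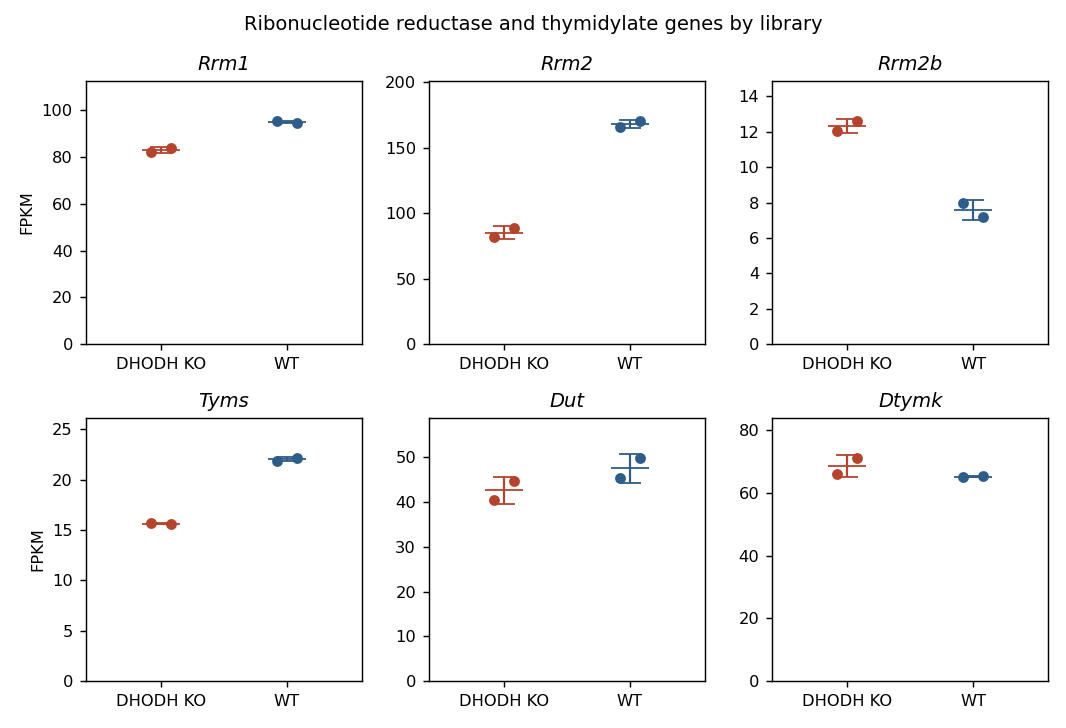
FPKM of the 6 genes, each in its own panel with an axis from 0, in DHODH KO (left) and WT (right). Points are libraries, and the horizontal mark and bars are the mean ± SD of 2 libraries. Rrm2 stands at 85.1 FPKM in KO and 167.9 FPKM in WT, whereas the Dut groups are 0.492 FPKM apart at their nearest libraries.

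The changes altered the proportions of the subunit transcripts, compared per length within each library. The ratio of Rrm2 to Rrm1 was 0.991 and 1.06 in the KO libraries, against 1.74 and 1.80 in the WT libraries, a log2 difference of -0.79. The KO libraries thus held about as many Rrm2 as Rrm1 transcripts per length, and the WT libraries held more Rrm2. The ratio of Rrm2b to Rrm2 was 0.148 and 0.142 in KO and 0.0482 and 0.0423 in WT, 3.21-fold higher in KO (log2 difference 1.68). For each of these ratios the two-sided exact permutation test over the libraries gave p = 0.333, the smallest that 2 against 2 libraries allow, so the design cannot pass a threshold of 0.05. Rrm2b made up 12.9% and 12.4% of the summed FPKM of both small subunits in KO, against 4.60% and 4.06% in WT. Mean Rrm2b rose by 4.72 FPKM, while mean Rrm2 fell by 82.8 FPKM. The summed small subunits remained lower, at 93.4 and 101.4 FPKM in KO and 173.7 and 177.3 FPKM in WT. Relative to Rrm1 this sum was 1.14 and 1.21 in KO and 1.82 and 1.87 in WT.

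**Figure D2:**
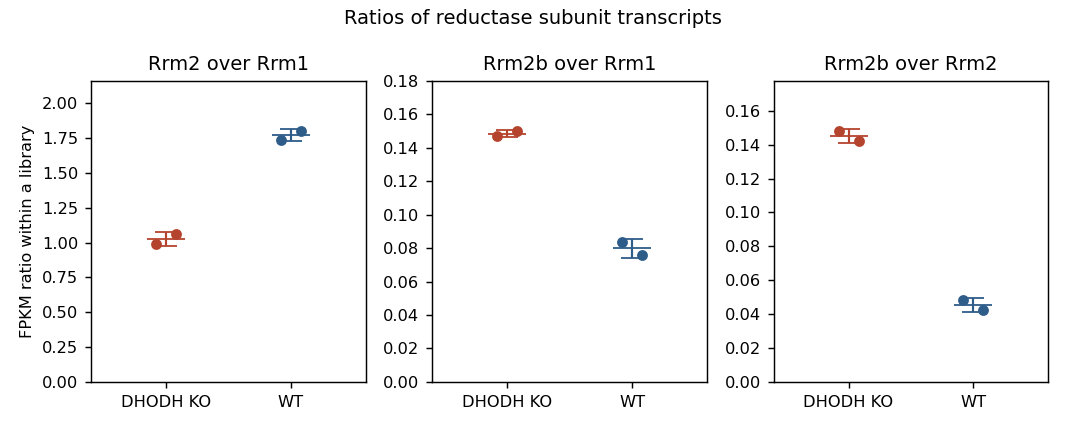
Ratios of FPKM within a library for the reductase subunits, in DHODH KO (left) and WT (right), on axes from 0. Points are libraries, with the mean ± SD of 2. Rrm2 over Rrm1 was lower in both KO libraries, and Rrm2b over Rrm1 (0.147 and 0.150 in KO, 0.0839 and 0.0760 in WT) and over Rrm2 was higher.

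Tyms, thymidylate synthase (Entrez Gene 22171), measured 15.67 and 15.58 FPKM in KO and 21.87 and 22.16 FPKM in WT. The libraries of a genotype were nearly equal, and the groups lay 6.20 FPKM apart. The mean fell by 29.0% of the WT level, to 15.6 ± 0.0657 FPKM in KO, against 22.0 ± 0.207 FPKM in WT (log2 fold change -0.47 ± 0.046, interval -0.578 to -0.361, adjusted p = 0.00012 by limma). Of the tested genes 9.78% had a lower log2 fold change.

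Dut, which makes the substrate of thymidylate synthase and keeps uracil out of DNA (Entrez Gene 110074), measured 40.50 and 44.81 FPKM in KO and 45.30 and 49.90 FPKM in WT. The KO libraries were the lower ones, yet the gap of 0.492 FPKM between the groups was smaller than the 4.31 FPKM between the KO libraries. The log2 fold change was -0.16 ± 0.064 (interval -0.306 to -0.004) and missed the threshold (adjusted p = 0.0683 by limma). With all libraries it passed when rescaled to TPM (adjusted p = 0.0446 by limma), with median-ratio scaling (0.0305), with voom on recovered reads (0.0262) and with a replicate block (0.0127). It also passed without DHODH KO replicate 2 (-0.23, adjusted p = 0.00794 by limma) and without WT replicate 1 (-0.22, adjusted p = 0.0242), and it was -0.08 without DHODH KO replicate 1 and -0.09 without WT replicate 2.

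Dtymk, the kinase that phosphorylates dTMP (Entrez Gene 21915), measured 66.05 and 71.16 FPKM in KO and 65.11 and 65.23 FPKM in WT. The KO libraries lay above the WT libraries by only 0.816 FPKM and differed from each other by 5.11 FPKM. The log2 fold change was 0.07 ± 0.045 (interval -0.034 to 0.178, adjusted p = 0.195 by limma). Without DHODH KO replicate 1 it was 0.12 and passed (adjusted p = 0.0287 by limma), and without DHODH KO replicate 2 it was 0.02.

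Ordered by mean level per length, both genotypes had Rrm2 first, then Rrm1, Dtymk, Dut, Tyms and Rrm2b. In KO the libraries of Rrm2 and Rrm1 overlapped, so the first 2 places cannot be ordered there, and no other neighbours overlapped in either genotype. Rrm2 lay above 92.6% of the tested genes in KO and above 96.6% in WT. Rrm2b lay above 50.7% in KO and 37.0% in WT, and Tyms above 57.9% in KO and 68.3% in WT. The ratio of Tyms to Dtymk, the next enzyme, was 0.237 and 0.219 in KO and 0.336 and 0.340 in WT. The ratio of Tyms to Dut, the enzyme before it, was 0.387 and 0.348 in KO and 0.483 and 0.444 in WT. These ratios were not tested. The KO and WT libraries of all 6 members lay apart, as did those of 83.4% of the tested genes (45.6% with KO higher and 37.9% with KO lower).

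**Figure D3:**
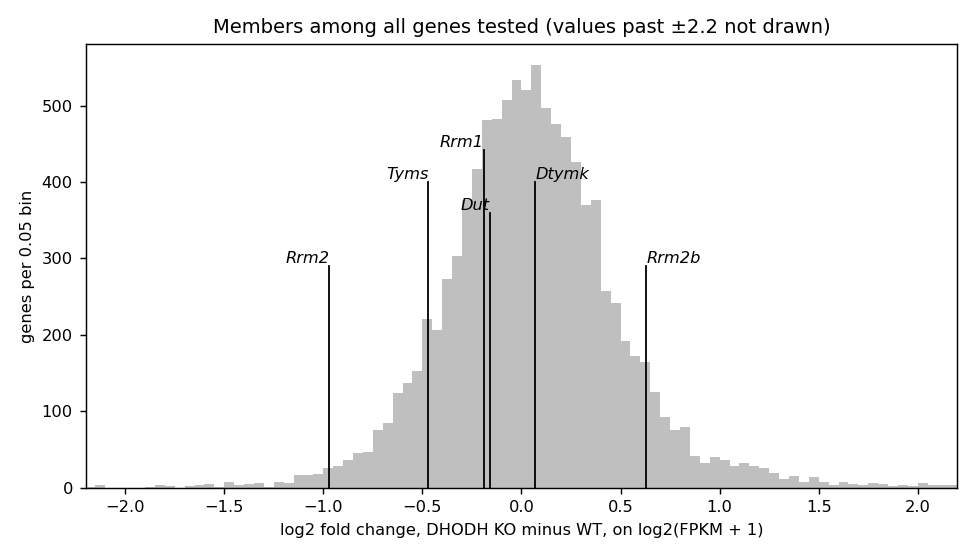
Distribution of log2 fold changes (DHODH KO minus WT) over the 10170 tested genes, as genes per bin, with a line at each of the 6 genes; the heights of the lines carry no value. Rrm2 at -0.97 lies in the low tail, Rrm2b at 0.63 and Tyms at -0.47 lie on the flanks, and Rrm1, Dut and Dtymk lie in the bulk.

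The other genes that feed, recycle or remove deoxynucleotides went both ways, and more fell than rose. Of 21 such genes reported here, 20 passed the filter. In this set 12 fell and 4 rose, with a median log2 fold change of -0.23, beside a median of 0.04 over all tested genes, of which 29.1% fell and 35.6% rose. That balance depends on scaling: with median-ratio scaling 3277 genes fell and 3255 rose, at a median of 0.002, beside 2958 and 3618 as deposited. In the alternatives that kept all libraries, the set had from 11 to 14 genes down and 3 or 4 up. The 14 came with median-ratio scaling. Tymp, thymidine phosphorylase, lay below the filter, at 0.011 and 0.068 FPKM in KO and 0.170 and 0.136 FPKM in WT.

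Of the 8 kinases that phosphorylate deoxynucleosides and nucleotides, 4 fell and 3 rose, where 29.1% of all tested genes fell and 35.6% rose. The share of kinases that rose is near that of the table. Tk1, the cytosolic thymidine kinase of S phase that makes dTMP from thymidine, measured 61.94 and 60.68 FPKM in KO and 86.49 and 88.39 FPKM in WT (log2 fold change -0.51 ± 0.036, adjusted p = 3.1e-05 by limma). This fall was close in size to that of Tyms, which makes the same product, and the difference between these changes was not tested. The other kinases that fell included Cmpk2, a mitochondrial nucleotide kinase that is also interferon-inducible, with 0.117 and 0.324 FPKM in KO and 4.67 and 4.00 FPKM in WT. Nme1, a nucleoside diphosphate kinase, fell by 0.36 on the log2 scale. The kinases that rose serve salvage of deoxynucleosides throughout the cell cycle. Dguok, mitochondrial deoxyguanosine kinase, measured 8.51 and 8.27 FPKM in KO and 5.27 and 6.18 FPKM in WT (0.48 ± 0.080, adjusted p = 0.00148 by limma). Tk2, the mitochondrial thymidine kinase, rose by 0.27, and Dck, deoxycytidine kinase, rose by 0.24 on the log2 scale.

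Of the 2 deaminases whose products lead to dUMP, Cda, cytidine deaminase, rose, with 8.97 and 9.47 FPKM in KO and 4.81 and 5.82 FPKM in WT (log2 fold change 0.70 ± 0.088, adjusted p = 0.00039 by limma). Dctd, which deaminates dCMP to dUMP, was not called, at 24.86 and 25.15 FPKM in KO and 26.13 and 26.89 FPKM in WT.

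The folate cycle that serves thymidylate synthase is covered here only in part, and counts of the 4 genes given do not describe the whole cycle. Of these genes 3 fell, where 29.1% of all tested genes fell and 64.7% were called. Shmt1, which loads serine carbon onto cytosolic folate, was not called. Mthfd1, which interconverts the cytosolic one-carbon folates, measured 30.04 and 28.39 FPKM in KO and 52.24 and 52.35 FPKM in WT (-0.82 ± 0.044, adjusted p = 8.5e-06 by limma). Of the mitochondrial enzymes, Shmt2 fell by 0.52 and Mthfd2 by 0.22 (log2).

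Of 6 tested genes that break down or clean up deoxynucleotides, 5 fell and none rose (29.1% and 35.6% over the table), and Ung, uracil-DNA glycosylase, was not called (log2 fold change -0.06 ± 0.060, adjusted p = 0.443 by limma). Nt5c, a deoxyribonucleotidase of the cytosol, measured 34.43 and 33.07 FPKM in KO and 54.19 and 52.31 FPKM in WT (-0.64 ± 0.043, adjusted p = 2.2e-05 by limma). Samhd1, which cleaves dNTPs and so opposes the reductase, measured 19.68 and 22.07 FPKM in KO and 27.11 and 26.92 FPKM in WT, a fall by 0.36 on the log2 scale. Dctpp1, which removes modified dCTP, fell by 0.23.

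**Figure D4:**
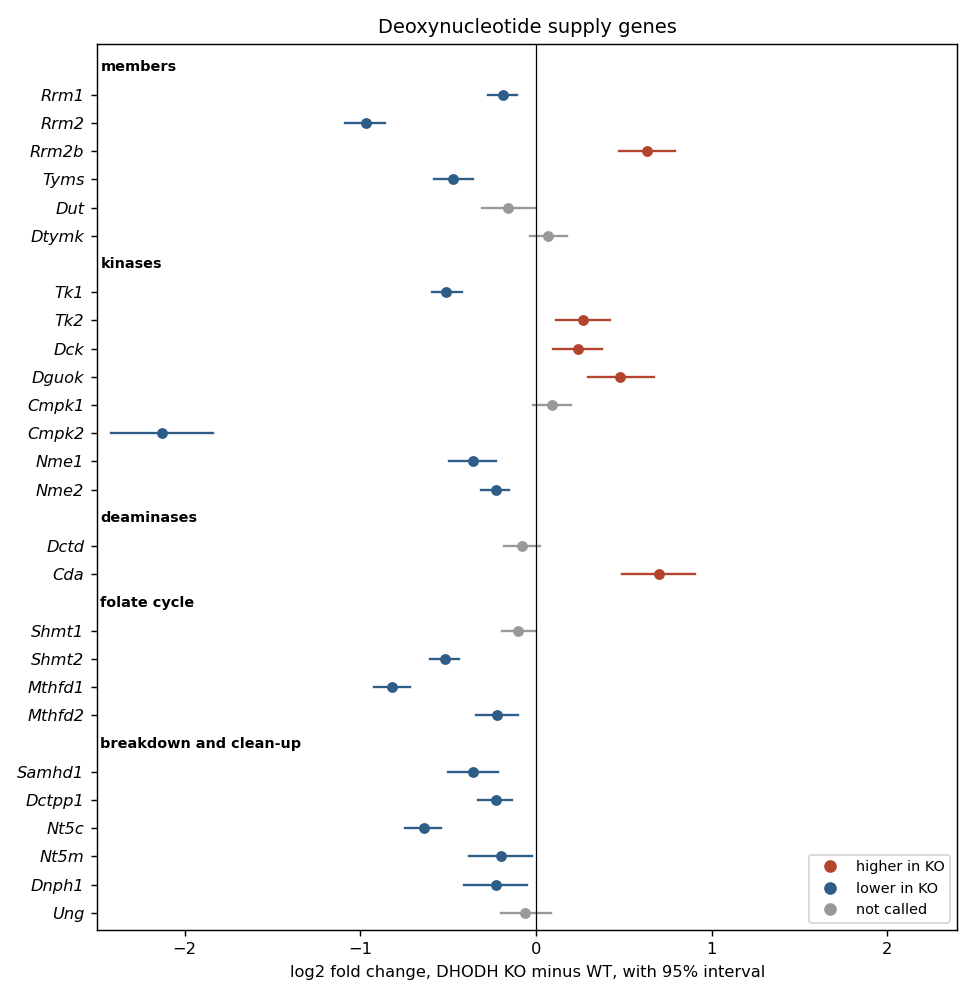
Log2 fold change (DHODH KO minus WT, points) with 95% interval from limma for the 6 genes and 20 other tested deoxynucleotide genes, by role. Colour marks genes called higher, called lower or not called. Cda and Rrm2b are the highest of those shown, and Cmpk2 and Rrm2 the lowest.

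Genes known to control the members were examined next. Of 18 transcription and degradation factors, 6 fell and 3 rose, with a median log2 fold change of -0.01. Over all tested genes 29.1% fell and 35.6% rose, so the share of factors that fell is near that of the table, and fewer of them were called than the 64.7% of the table. Ccnf, cyclin F, and Fzr1, the CDH1 activator of the anaphase-promoting complex, are known to mark RRM2 protein for degradation. Ccnf fell to 14.91 and 15.26 FPKM in KO, against 25.98 and 28.16 FPKM in WT (-0.80 ± 0.054, adjusted p = 2.4e-05 by limma), and Fzr1, named after its value was seen, fell by 0.64. The RNA levels here say nothing of RRM2 protein. Foxm1, an activator of late cell cycle genes, fell to 28.85 and 28.03 FPKM in KO, against 45.87 and 45.05 FPKM in WT (-0.66 ± 0.041, adjusted p = 1.7e-05 by limma). E2f8, a repressor of E2F targets, fell by 0.67. E2f1, an activator of S phase genes named after its value was seen, rose to 21.75 and 23.15 FPKM in KO, against 16.46 and 15.46 FPKM in WT. The subunits of the CCAAT-binding factor NF-Y differed. Nfyc fell by 0.79, Nfya rose by 0.40 on the log2 scale, and Nfyb was not called (0.03). Of the other E2F genes listed, E2f4 fell by 0.37, and E2f2, E2f3 and E2f7 were not called. Nfya, Nfyb and these other E2F genes were named after their values were seen.

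Of 5 kinases of the replication checkpoint, 3 rose and none fell. The share called is near the 64.7% of the table, in which 35.6% rose. Chek1, the effector kinase that is activated at stalled forks, measured 28.61 and 28.16 FPKM in KO and 17.99 and 15.78 FPKM in WT (0.72 ± 0.065, adjusted p = 8.2e-05 by limma). The upstream kinases Atm and Atr rose by 0.38 and 0.33 on the log2 scale.

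**Figure D5:**
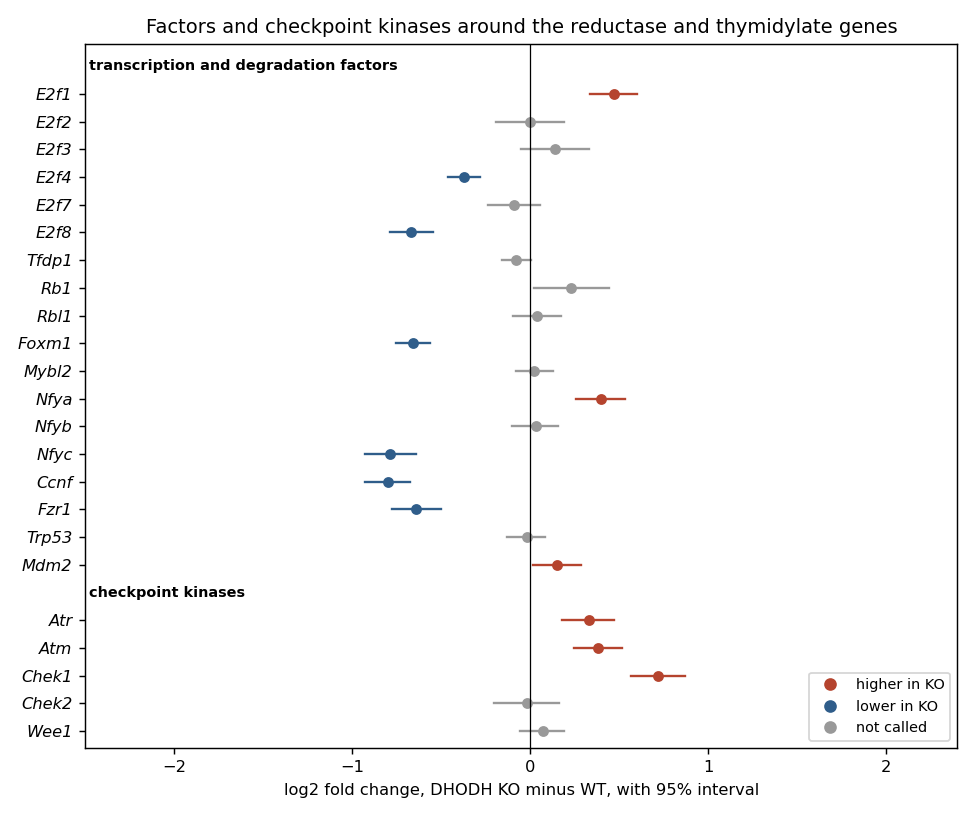
Log2 fold change (DHODH KO minus WT, points) with 95% interval from limma for 18 factors known to act on the reductase or thymidylate genes and 5 replication checkpoint kinases, coloured by call. Chek1 and E2f1 are highest, and Ccnf and Nfyc lowest.

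Rrm2b is a p53 target, and of 16 other tested p53 targets, 10 rose and 2 fell, with a median log2 fold change of 0.25, beside 35.6% and 29.1% of all tested genes and a median of 0.04. Plk2, a polo-like kinase, measured 184.23 and 180.96 FPKM in KO and 64.13 and 65.53 FPKM in WT, and Btg2, an antiproliferative factor, 7.17 and 7.07 FPKM in KO and 0.872 and 0.983 FPKM in WT. Both respond to other signals too. Cdkn1a, the p21 inhibitor of cyclin-dependent kinases, rose 2.85-fold, and Mdm2 rose by only 0.15 on the log2 scale. The 2 targets that fell were Ccng1 and Aen, with log2 fold changes of -0.60 and -0.36. Bax, Fas, Sesn1 and Tigar were not called. Trp53 itself was not called, at 21.96 and 21.52 FPKM in KO and 21.85 and 22.31 FPKM in WT (log2 fold change -0.02 ± 0.045, adjusted p = 0.696 by limma). Apart from Plk2 and Btg2, the genes of this list and Trp53 were named after their values were seen. Whether p53 acted on Rrm2b or these targets was not tested. The level of Trp53 RNA does not show whether these cells make working p53 protein, which was not measured.

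Genes of DNA replication went both ways. Of 32 replication genes, 17 rose and 6 fell, with a median log2 fold change of 0.11. Over all tested genes 35.6% rose and 29.1% fell, with a median of 0.04. With median-ratio scaling 12 replication genes rose and 8 fell, beside 3255 and 3277 of all tested genes. Without the limma trend 13 replication genes rose and 6 fell. Cdt1, the licensing factor, and Prim1, a primase subunit, rose by 0.42 and 0.52, and the lowest value on that list, -0.60, was above that of Rrm2. Of 19 mitosis genes, 19 fell, where 29.1% of all tested genes did. Their median was -0.63 and their values ran from -1.40 to -0.32, a span that holds both Rrm2 and Tyms. The replication genes ran from -0.60 to 0.64, a span that also holds Tyms and every other member except Rrm2. Whether the members moved with cell cycle position was not tested.

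The genes with the profile most like that of each member over the 4 libraries were sought among 5592 genes with a mean of at least 10 FPKM, by the root mean square difference of centred log2(FPKM + 1). For Rrm2 they were Tspan14, Spp1 and Rpl41, with differences of 0.024, 0.024 and 0.033. For Tyms they were Cdc27, Zfp414 and Arf6, with differences from 0.0056 to 0.0086, and for Rrm2b they were Bicd2, Gadd45b and Lix1l, with differences from 0.015 to 0.020. Rrm1 was nearest to Cdkn2aipnl, Ube2g2 and Neurl4, Dut to Hprt, Psmb6 and Rnaseh2a, and Dtymk to Pop5, Brpf1 and Rpl29. With 4 libraries in 2 groups, such a profile is little more than the size of the difference between genotypes.

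Recovered reads summed to between 25201213 and 28133343 per library. Dhodh RNA, a weak check of the labels because a small edit need not change it, measured 9.67 and 8.69 FPKM in KO and 10.87 and 10.33 FPKM in WT. It was called lower, by only 13.4% of the WT mean (log2 fold change -0.19 ± 0.068, adjusted p = 0.0425 by limma). The 8 epithelial markers were above 0 in every library. Of 13 heart muscle markers, 9 were at 0 in DHODH KO replicate 1 and none in DHODH KO replicate 2, with 9 and 7 at 0 in the WT libraries. The list summed to 204 and 332 FPKM in KO and 188 and 193 FPKM in WT, most of it in each library Tnnt2, which all 4 libraries held. Without DHODH KO replicate 2, the log2 fold changes were -1.04 for Rrm2, -0.21 for Rrm1, 0.60 for Rrm2b and -0.47 for Tyms, each still called. Immune markers summed to 0.509 and 3.72 FPKM in KO and 0.144 and 0.229 FPKM in WT, and markers of fibroblasts and endothelium to 2.41 and 4.88 FPKM in KO and 3.0 and 2.86 FPKM in WT.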

How the data were processed

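RNA-seq of 4T1 cells gave 2 DHODH KO and 2 WT libraries, grouped by the titles in the labels. The values are FPKM as deposited by the authors. The submitters' processing notes name fastp, HTSeq and the build GRCm39. The aligner, annotation and strand setting were not given in the sources used here, and reads of overlapping or antisense genes may be mixed. Genes with a mean of at least 1 FPKM entered a limma-trend fit of log2(FPKM + 1), two-sided, without covariates (limma 3.58.1, R 4.3.3, 5.15 prior degrees of freedom), and the fit was tested on simulated data. Ratios within a library had an exact permutation test. Whole reads were recovered from the FPKM steps for 98.9% of genes (tolerance 0.002 of a read, up to 20000 reads). They are the smallest whole numbers that match, so a divisor shared by the 4 libraries would not be seen. Other software was Matplotlib 3.10.9 for figures and pandas 2.3.3 on Python 3.11.15 for tables.

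The members and lists were chosen with earlier results of these data known. Some genes of the folate list are not reported here and enter no list count. Named were the members, up to 3 called genes with the largest change in each direction of each deoxynucleotide list, up to 4 of the factor and kinase lists and up to 2 of the p53, replication and mitosis lists with the smallest adjusted p, and the 3 nearest profiles, unless said otherwise. Alternatives were another pseudocount, filter, scaling or variance model, voom on recovered reads, a replicate block and leaving out each library.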

Additional observations from a re-analysis of the deposited data

How the results depend on the processing

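Rrm1, Rrm2, Rrm2b and Tyms kept their direction and their call in each of the 13 alternatives. Their log2 fold changes ran from -0.23 to -0.18 for Rrm1 (adjusted p from 0.00016 to 0.0176), from -1.04 to -0.91 for Rrm2 (8.2e-11 to 0.00333), from 0.57 to 0.70 for Rrm2b (3.8e-07 to 0.0084) and from -0.51 to -0.46 for Tyms (3.1e-07 to 0.00342), by limma. Dut passed when rescaled to TPM (-0.16, adjusted p = 0.0446), with median-ratio scaling (-0.20, 0.0305), with voom on recovered reads (-0.16, 0.0262) and with a replicate block (-0.16, 0.0127). Replicate 2 was the higher Dut library in KO (44.81 against 40.50 FPKM) and in WT (49.90 against 45.30 FPKM). The replicate block takes out such a shared shift, and the SE of Dut was 0.041 with it, against 0.064 in the fit reported. For the other settings the cause was not tested. Leaving out 1 library moved Dut from -0.23 to -0.08 (adjusted p from 0.00794 to 0.337 by limma) and Dtymk from 0.02 to 0.12 (0.0287 to 0.715). Leaving out 1 library kept the log2 difference of Rrm2 over Rrm1 between -0.84 and -0.74, and that of Rrm2b over Rrm2 between 1.59 and 1.78.

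The factors called higher were 5 in place of 3 without the limma trend and with voom, and 2 in 8 alternatives (no filter, TPM, median-ratio scaling, the replicate block and leaving out each library), Mdm2 having an adjusted p of 0.0488 in the fit reported, and the p53 targets called higher were 6 in place of 10 with a minimum mean of 5 FPKM, where fewer genes are tested. Replicate numbers are shared by the titles of both genotypes. The numbers gave little sign of pairing, as the difference between replicates 1 and 2 correlated across genes at r = 0.0463 between genotypes, and the replicate block called 3681 genes higher and 3001 lower, beside 3618 and 2958 without it. Within numbers 1 and 2, the log2 difference of Rrm2 over Rrm1 was -0.81 and -0.76.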
